A study of Mus musculus with 4 samples.

Results

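Wide MED1 regions of 1 interval are unbroken stretches of at least 3776 bp that the deposited MED1 ChIP-seq peak list reports as a single entry with no other entry in contact. The members were selected on measured values, namely their width and their number of intervals. The 53747 deposited intervals on chromosomes 1 to 19 and X were sorted, and intervals that began exactly where the previous interval ended were joined. This gave 22565 regions, of which 7956 consisted of 1 interval. Of these, 399 regions were at least 3776 bp wide and form the set described here, 5.02% of the single-interval regions and 1.77% of all regions. They covered 2.23 Mb, which was 3.73% of the length of all regions. They are set beside the 7557 narrower single-interval regions and the 3306 joined regions of 2 or more intervals that reached the same width.

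The chromatin came from RAW 264.7 cells, a mouse macrophage-like line, either stimulated with LPS for 2 h (2 libraries) or left untreated (2 libraries). LPS is a component of the bacterial outer membrane that macrophages sense through a Toll-like receptor. The sample labels give the LPS dose as 10 ng/mL and the treatment protocol gives it as 100 ng/mL. The labels do not say whether the replicates were separate cultures. A single list was deposited for all 4 libraries with no library named for any interval, so no value below separates stimulated from untreated cells, and depth is unknown. Coordinates are 1-based on mm10, and genes are the 21627 protein-coding genes of the RefSeq annotation of GRCm38.p6 on these chromosomes.

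MED1 is a subunit of Mediator, the coactivator complex that links transcription factors bound at enhancers and promoters to RNA polymerase II. Dense and extended MED1 occupancy is widely used to define clusters of strong enhancers, often near genes that specify a cell type or that respond to its signals. In macrophages, LPS activates NF-kB, AP-1 and interferon regulatory factors, which switch on cytokine, chemokine and microRNA genes first and interferon-stimulated genes later.

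The sequences that follow are those of regulatory RNAs and promoters that lie inside wide single-interval regions, and they are shown because the values given below for these microRNA and interferon-response genes refer to them. A region of 20.4 kb held Mir155, whose microRNA is induced in macrophages by inflammatory signals. A region of 6.44 kb held the locus of miR-146a, which represses components of Toll-like receptor signalling. The mature RefSeq sequences are given 5′ to 3′ with the seed (bases 2 to 8) in capitals, and none of the 4 seeds is shared.
mmu-miR-155-5p: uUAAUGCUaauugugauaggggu
mmu-miR-155-3p: cUCCUACCuguuagcauuaac
mmu-miR-146a-5p: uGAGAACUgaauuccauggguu
mmu-miR-146a-3p: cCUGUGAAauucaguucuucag

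Mature miR-155-5p lies at chr16:84714143-84714165 and miR-155-3p at chr16:84714182-84714202, both on the plus strand, inside the region chr16:84698677-84719124. Mature miR-146a-5p lies at chr11:43374435-43374456 and miR-146a-3p at chr11:43374399-43374420, both on the minus strand, inside the region chr11:43368198-43374636. Wide single-interval regions overlapped 5 of the 1072 miRNA genes in the annotation (0.466%), against 15 (1.40%) for the narrow single-interval regions and 56 (5.22%) for the wide joined regions. The other 3 were Mir28a, which lies within Lpp, Mir7687 and Mir7048. The sets held 399, 7557 and 3306 regions, and these shares are of miRNA genes and not of regions.

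Of the genes on the list of secondary and interferon-response genes, 6 had their whole RefSeq promoter, 250 bases before to 50 after the start, inside a wide single-interval region. The 6 promoters are shown on the strand of the gene, 5′ to 3′. Capitals mark the interferon response element searched, GAAANNGAA on either strand, which reads TTCNNTTTC where it runs backwards and may overlap another copy of itself. The shown set was chosen after the regions were known.
Rsad2: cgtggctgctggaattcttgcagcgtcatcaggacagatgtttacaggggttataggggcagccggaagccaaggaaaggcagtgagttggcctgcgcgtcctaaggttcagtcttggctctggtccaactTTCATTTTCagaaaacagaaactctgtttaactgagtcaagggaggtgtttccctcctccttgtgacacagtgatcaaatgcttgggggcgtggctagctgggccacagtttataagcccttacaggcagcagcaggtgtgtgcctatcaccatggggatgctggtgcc
Gbp5: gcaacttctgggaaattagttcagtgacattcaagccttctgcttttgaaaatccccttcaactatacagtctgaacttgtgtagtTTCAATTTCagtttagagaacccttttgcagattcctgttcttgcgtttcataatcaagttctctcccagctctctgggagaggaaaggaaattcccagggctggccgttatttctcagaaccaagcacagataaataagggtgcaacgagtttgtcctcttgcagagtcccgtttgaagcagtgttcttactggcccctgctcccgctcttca
Ifit1: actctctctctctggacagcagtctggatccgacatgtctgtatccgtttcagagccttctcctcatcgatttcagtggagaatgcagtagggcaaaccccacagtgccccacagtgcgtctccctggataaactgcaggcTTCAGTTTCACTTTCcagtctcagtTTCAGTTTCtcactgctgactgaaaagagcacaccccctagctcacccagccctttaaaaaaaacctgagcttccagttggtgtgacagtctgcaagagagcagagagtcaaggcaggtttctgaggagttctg
Edn1: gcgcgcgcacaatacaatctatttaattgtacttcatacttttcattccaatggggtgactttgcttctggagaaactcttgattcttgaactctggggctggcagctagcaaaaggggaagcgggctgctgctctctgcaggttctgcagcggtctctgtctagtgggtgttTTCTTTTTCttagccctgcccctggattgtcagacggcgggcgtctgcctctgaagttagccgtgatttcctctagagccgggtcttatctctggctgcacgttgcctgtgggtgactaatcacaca
Gbp2: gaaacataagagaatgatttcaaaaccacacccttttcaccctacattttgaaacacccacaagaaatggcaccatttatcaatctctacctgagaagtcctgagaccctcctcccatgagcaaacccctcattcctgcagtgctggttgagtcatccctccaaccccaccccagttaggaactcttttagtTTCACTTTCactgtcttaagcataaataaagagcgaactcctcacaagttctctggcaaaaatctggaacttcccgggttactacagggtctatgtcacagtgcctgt
Ifnb1: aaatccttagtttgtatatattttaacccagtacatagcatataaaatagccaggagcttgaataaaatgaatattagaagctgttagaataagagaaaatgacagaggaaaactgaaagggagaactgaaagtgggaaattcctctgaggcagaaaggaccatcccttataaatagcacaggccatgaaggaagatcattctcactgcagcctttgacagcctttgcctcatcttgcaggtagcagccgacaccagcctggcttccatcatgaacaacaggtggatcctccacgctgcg

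The promoter of Rsad2 (viperin, an antiviral enzyme) spans chr12:26456403-26456702 on the minus strand, and its element begins 119 bases before the start. Gbp5, an interferon-induced GTPase of inflammasome responses, has its promoter at chr3:142496684-142496983 on the plus strand, with the element 164 bases before the start. The promoter of Ifit1, which encodes an inhibitor of viral RNA translation, spans chr19:34640639-34640938 on the plus strand and holds 3 copies, at 109, 103 and 84 bases before the start. The first 2 copies share bases. Edn1 encodes the vasoconstrictor peptide endothelin-1, and its promoter at chr13:42301226-42301525 on the plus strand holds the element 77 bases before the start. Gbp2, another interferon-induced GTPase, has its promoter at chr3:142620413-142620712 on the plus strand, with the element 58 bases before the start. The promoter of Ifnb1, the gene of interferon beta, at chr4:88522745-88523044 on the minus strand held no match to these letters, which says nothing of the factors that bind it.

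Among the 66 promoters of the table (58 genes) that lay whole inside a wide single-interval region, 14 held the interferon element, a share of 21.2% (Wilson 95% interval 13.1 to 32.5). The share was 7.41% of 1093 promoters inside narrow single-interval regions, 8.76% of 2272 inside wide joined regions and 8.53% of all 32619 promoters in the table. The 14 promoters belong to 13 genes, and those of Ifit1 and its neighbour Ifit1bl2 overlap and read the same 3 copies. Overlapping promoters of Gm39671 likewise read the same copy. Because some promoters overlap, the 66 are not independent, and the Wilson intervals do not allow for this. The AP-1 motif TGANTCA was in 9 of the 66 promoters (13.6%, 7.34 to 23.9), against 6.77%, 6.16% and 7.85% in the same comparison sets. TATAAA was in 13 of them (19.7%, 11.9 to 30.8), against 5.86%, 10.1% and 13.7%. The CRE motif TGACGTCA was in 0 of 66, which allows a share of up to 5.50%, and in 1.80% of all promoters. The PU.1 motif GAGGAAGT and the NF-kB motif GGGANTTTC were each in 1 of the 66 (1.52%), against 3.22% and 1.12% of all promoters. Each motif was searched on both strands, none of these differences was tested, and a match is a description of letters and not of binding.

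The base composition of the promoters inside wide single-interval regions was read alongside. Their median GC content was 55.3%, with quartiles of 48.8 and 66.0, against 60.3% inside narrow single-interval regions and 60.3% inside wide joined regions. The median over all promoters was 53.0%. Their median number of CpG dinucleotides was 10, against 19, 19 and 7 in the same order. The base composition of a promoter bears on how often each motif occurs, and its part in the motif shares was not tested.

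Most wide single-interval regions were only somewhat above the width limit. Their median width was 4770 bp, with quartiles of 4132 and 5980 bp, and the widest was 24315 bp. There were 167 regions of 5 kb or more and 21 of 10 kb or more. Narrow single-interval regions had a median of 1294 bp, and wide joined regions a median of 5536 bp with a maximum of 55273 bp, 474 of them at 10 kb or more. Just inside the limit were a region inside Ptpn22 (a tyrosine phosphatase of immune signalling), 1 in Chchd6 and 1 at an end of Snx14, each 3776 bp wide, and regions of 3782 bp near Fpr2, a formyl peptide receptor, and Kbtbd11. Just below it were regions in Rbm47 (3774 bp) and Ptpro (3758 bp) and near Cep78 (3754 bp), Anxa5 (3752 bp) and Atp2b1 (3752 bp). The width selects the set, so these values are descriptive.

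**Figure D1:**
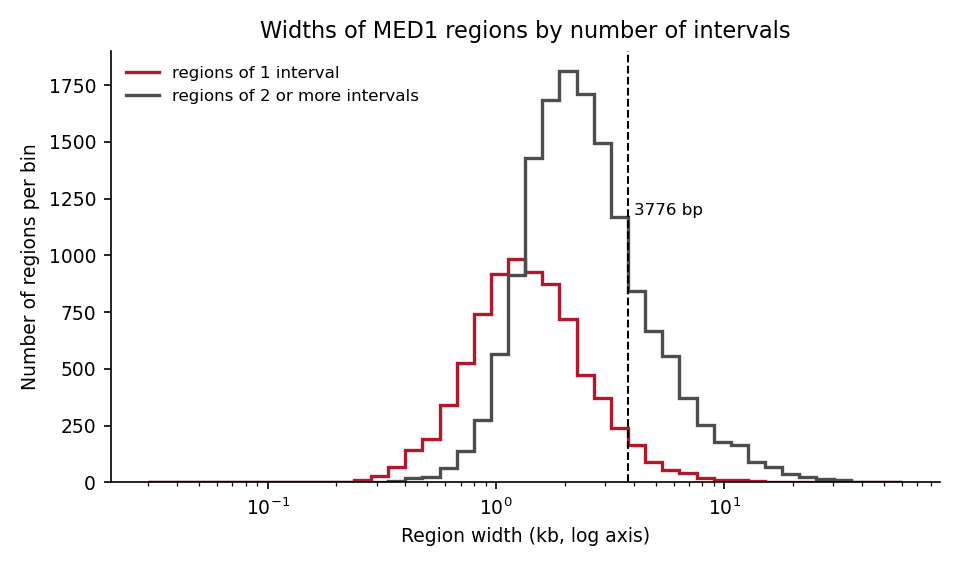
Histogram of region width in kb on a log axis for regions of 1 interval (red) and of 2 or more intervals (grey), with the number of regions per bin on the vertical axis and a dashed line at 3776 bp. The 399 wide single-interval regions are the tail of the red curve right of the line.

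The widest stretch of all the single-interval regions covered Ccl5, a chemokine that attracts T cells and monocytes and is strongly induced by LPS. This region, chr11:83521992-83546306, was 24.3 kb wide, held Ccl5 whole, and reached into the neighbouring gene Heatr9. A further wide single-interval region began 1.83 kb beyond it. The second in width, chr9:47698483-47720209, lay 21.7 kb wide inside Cadm1, an adhesion molecule of the immunoglobulin superfamily. The third was the 20.4 kb region at Mir155, which also held the host transcript Mir155hg and the edge of the mitochondrial ribosomal protein gene Mrpl39. Then came regions of 15.8 kb in Malt1, the protease that relays antigen-receptor and innate signals to NF-kB, and of 15.5 kb at chr4:64080131-64095635, 40.9 kb from Tnc, the gene of the matrix protein tenascin C.

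Several of the next regions lay in genes of signalling and adhesion. Lpp, a LIM-domain protein of focal adhesions, held regions of 15.4 kb (chr16:24760218-24775660) and 13.7 kb (chr16:24818020-24831695). Nfkb1, which encodes the p105 precursor of NF-kB p50, held 13.2 kb (chr3:135664167-135677385). Mapkapk2, the kinase downstream of p38 that stabilises cytokine mRNAs, had 11.7 kb at its end (chr1:131048597-131060304), and the same region lay 29.5 kb from Il10. Fnbp1l, a regulator of actin assembly, held 11.5 kb, and Nrp2, a receptor for semaphorins and VEGF, held 11.0 kb. Lpl, the lipoprotein lipase, and Akap13, an anchor for protein kinase A, held 10.9 kb each. Vsir, the immune checkpoint receptor VISTA, and Plek, a substrate of protein kinase C, held 10.8 kb each. The region in Vsir also overlapped the gene Cdh23.

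Others of the 20 widest lay outside genes. A 13.8 kb region at chr7:98530603-98544372 was 35.7 kb from Lrrc32, which encodes a docking receptor for latent TGF-beta. A 13.2 kb region at chr2:157399170-157412331 lay 8.99 kb from Manbal. A 13.1 kb region at chr13:5780990-5794126 was 73.9 kb from Klf6, and an 11.9 kb region at chr10:17006003-17017892 was 711 kb from Cited2. Klf6 is a zinc-finger transcription factor, and Cited2 binds the coactivators CBP and p300. An 11.3 kb region lay nearest to Qpct, a glutaminyl cyclase, with no other region closer than 67.4 kb. The nearest gene is named for position alone and is not shown to be the target of the region.

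**Figure D2:**
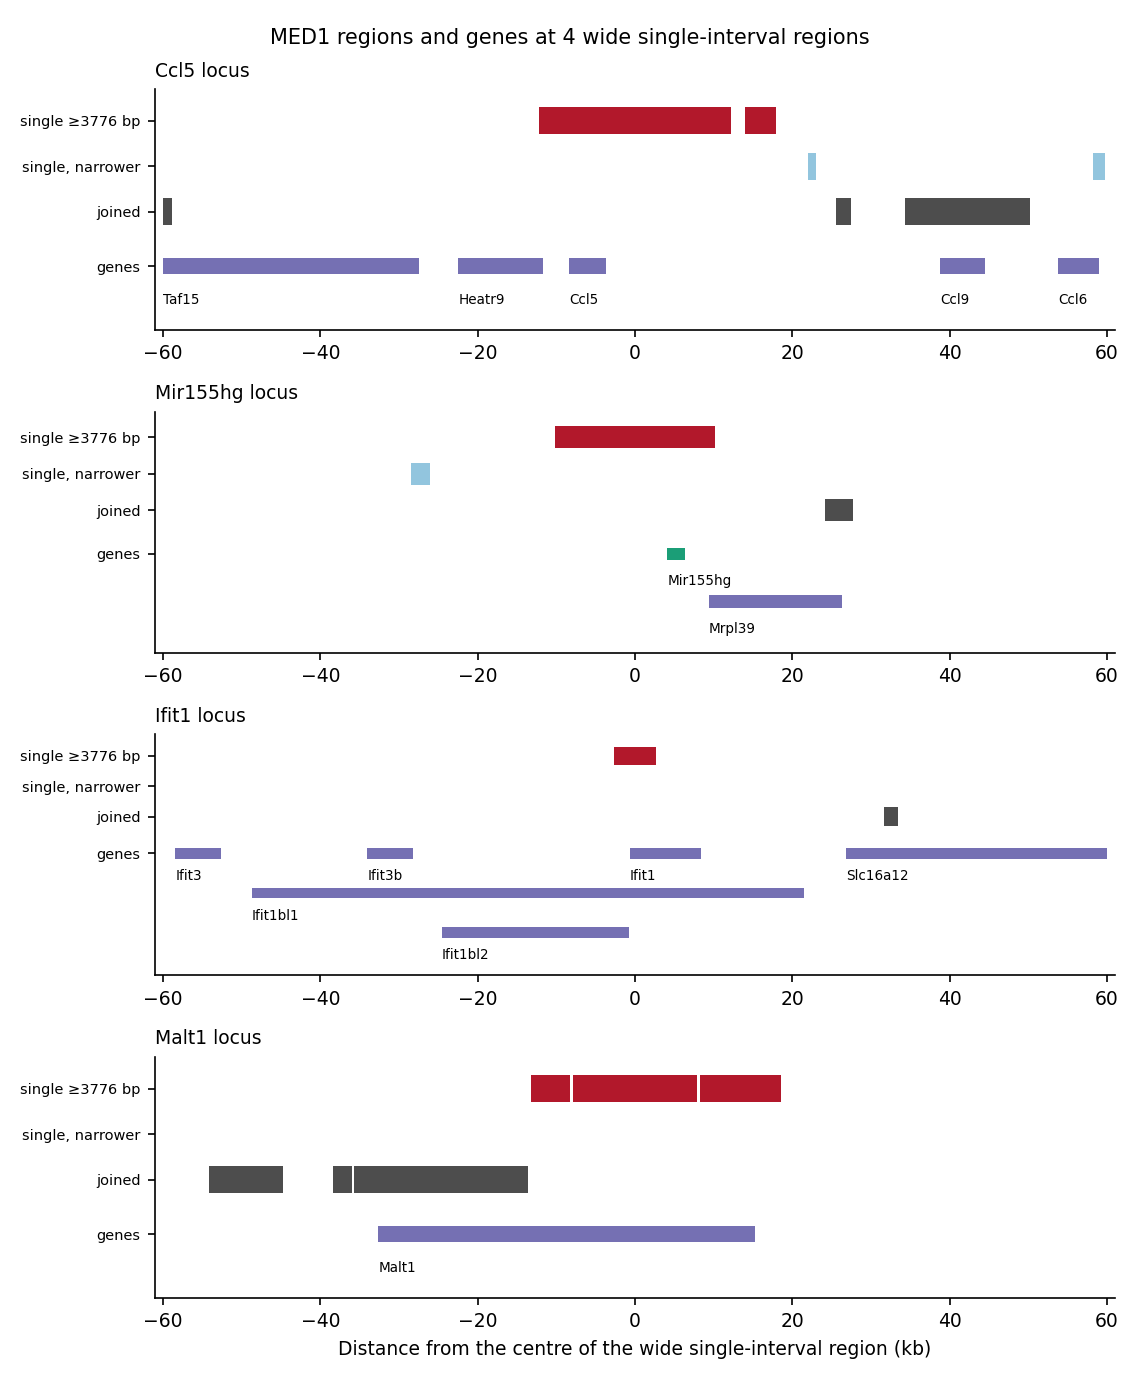
Maps of 4 loci, with distance in kb from the centre of a wide single-interval region on the horizontal axis and, from top to bottom, wide single-interval regions (red), narrower single-interval regions (light blue), joined regions (grey), and genes (purple, protein-coding; green, non-coding). At Ccl5 and at Mir155hg the red region covers the gene whole, at Ifit1 it covers the start, and at Malt1 3 red regions follow each other within and beyond the gene.

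Wide single-interval regions were mostly away from gene ends. Midpoints at most 1 kb from the start or stop coordinate of a protein-coding gene were classed as at a gene end, and all others as inside or outside genes. Of the 399, 40 were at a gene end, 10.0% (7.45 to 13.4), against 17.6% (16.8 to 18.5) of narrow single-interval and 21.1% (19.8 to 22.5) of wide joined regions. Inside genes lay 208 of them, 52.1% (47.2 to 57.0), against 46.1% (45.0 to 47.2) and 50.2% (48.5 to 51.9). Outside genes lay 151, 37.8% (33.2 to 42.7), against 36.2% of narrow single-interval regions and 28.7% (27.2 to 30.2) of wide joined regions. Of these 151, 41 (27.2%) overlapped an annotated gene that is not protein-coding. The share was 23.5% for narrow single-interval, 37.9% for wide joined and 27.7% for all regions outside genes. Over all 22565 regions, 31.9% were at a gene end, 39.3% inside genes and 28.8% outside. Both comparison sets were thus also below the share of all regions at gene ends. All intervals in parentheses are Wilson 95% intervals that cover counting error over regions, and regions are not replicates of a condition. The shares are descriptions, and none was tested, because all regions come from the same list.

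Because wide regions cover more sequence, the shares were also taken within bands of width. From 3776 to 5000 bp, 29 of 232 wide single-interval regions were at a gene end, against 363 of 1292 joined regions (28.1%). From 5000 to 7500 bp there were 9 of 119 (7.56%), against 233 of 1152 (20.2%). From 7500 to 10000 bp there was 1 of 27 (3.70%), against 59 of 388 (15.2%). At 10000 bp or more there was 1 of 21 (4.76%), against 43 of 474 (9.07%). The single-interval share was the lower one in each of the 4 bands. In the bands from 7500 bp upwards it rests on 1 region each, too few to rank those shares. In the band of the widest regions, 57.1% of the 21 single-interval and 61.4% of the 474 joined regions lay inside genes.

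Coverage of gene ends was counted as well. A gene end was covered by 73 wide single-interval regions, 18.3% (14.8 to 22.4), against 14.0% of narrow single-interval and 46.8% (45.1 to 48.5) of wide joined regions. The share over all regions was 34.4%. By overlap of any base, 261 wide single-interval regions (65.4%) touched a protein-coding gene, against 62.0% and 76.6%. Of the 399, 243 overlapped 1 gene, 18 (4.51%) overlapped 2 or more and 138 overlapped none. Of wide joined regions, 13.2% overlapped 2 or more genes. The genes that lay whole inside a wide single-interval region were 3, namely Ccl5, Ifnb1 and Ltc4s, the leukotriene C4 synthase gene. Whole genes were not counted for the comparison sets.

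**Figure D3:**
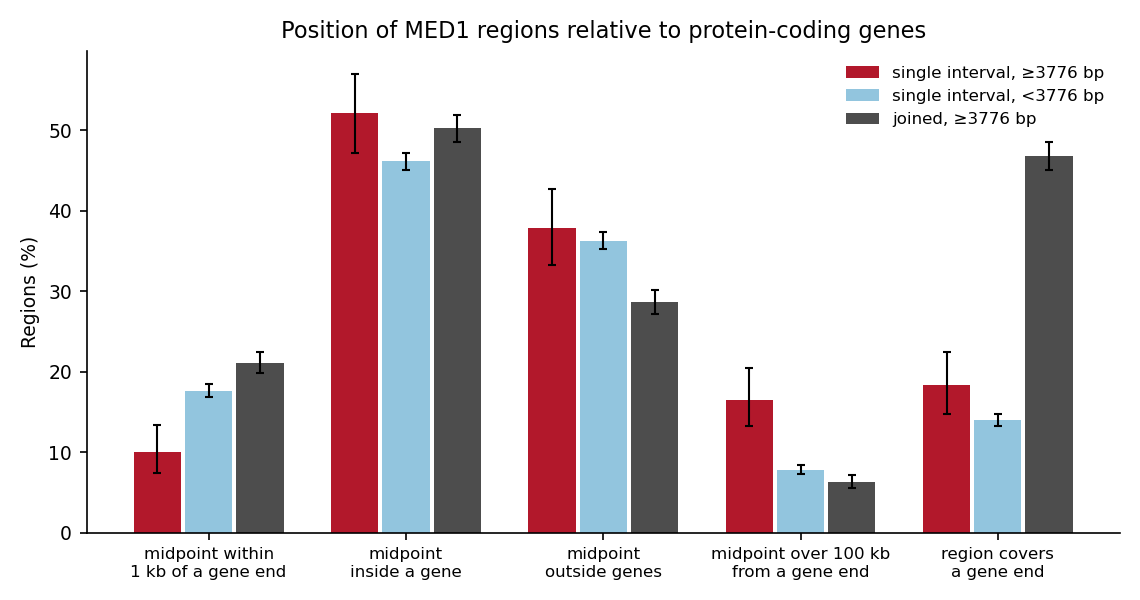
Share of regions in percent, by position relative to protein-coding genes, for wide single-interval (red), narrow single-interval (light blue) and wide joined regions (grey), with Wilson 95% intervals as bars. The red bar is the lowest at gene ends (10.0%), the highest beyond 100 kb from a gene end (16.5%), and far below the grey bar for coverage of a gene end (18.3% and 46.8%).

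The median distance from the midpoint to the nearest gene end was 17.5 kb for wide single-interval regions (95% interval of the median 14.7 to 21.5), against 10.9 kb (10.3 to 11.5) for narrow single-interval and 4.82 kb (4.35 to 5.54) for wide joined regions. Its quartiles were 5.78 and 51.2 kb. More than 100 kb from any gene end lay 66 of them, 16.5% (13.2 to 20.5), against 7.83% (7.25 to 8.46) and 6.32% (5.54 to 7.20). Over all regions the median distance was 5.28 kb, and 5.73% lay more than 100 kb from a gene end.

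**Figure D4:**
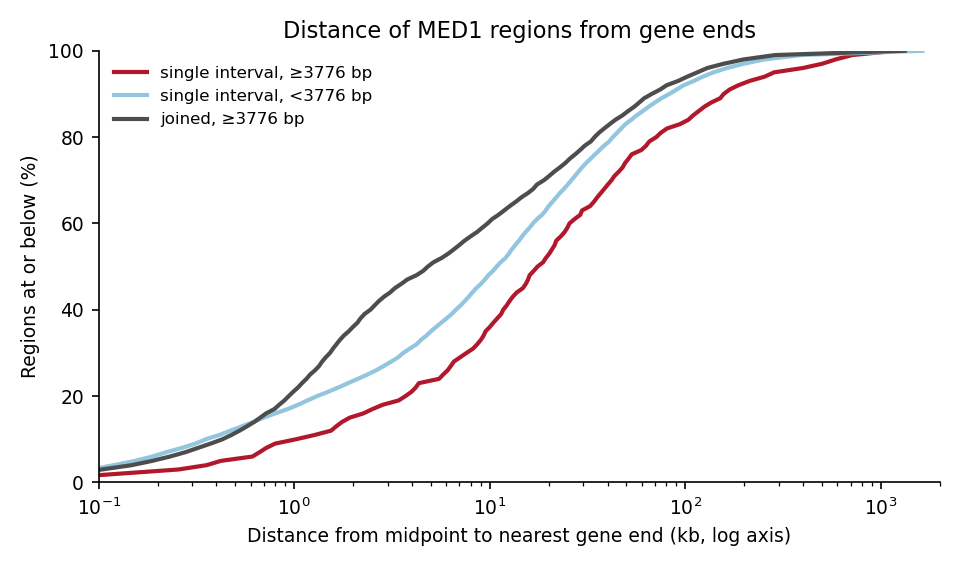
Cumulative share of regions in percent against the distance from the midpoint to the nearest gene end in kb, on a log axis, for wide single-interval (red), narrow single-interval (light blue) and wide joined regions (grey). The red curve lies right of the others over most of its length and crosses 50% at 17.5 kb, against 10.9 and 4.82 kb.

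Some of the regions farthest from protein-coding genes shared their nearest gene. For 7 of them the nearest gene was Cited2, at distances of 501 to 1198 kb, and their widths were 11.9, 6.96, 6.72, 5.71, 4.83, 4.40 and 3.85 kb. A further 4, with widths of 7.18, 6.62, 5.55 and 4.34 kb, lay 304 to 412 kb from Atp2b1, a calcium pump of the plasma membrane. Single regions also lay far from other protein-coding genes, such as Ankrd50 (345 kb), Sema3a (254 kb) and Marcks (198 kb). Genes that are not protein-coding overlapped some of these regions. They were Gm20125 at the Cited2 regions of 11.9 and 6.96 kb, Rpl21-ps10 at the Ankrd50 region and Gm26535 at the Marcks region. Starts in the promoter table, which holds coding and non-coding genes, were 438 to 846 kb from the 7 Cited2 regions. For the 4 Atp2b1 regions they were 21.4 to 72.9 kb away. Some regions whose nearest gene encodes a transcription factor of myeloid cells or growth responses were picked after the values were seen. These were 9.01 kb at 283 kb from Klf4, 5.24 kb at 162 kb from Jun, 4.29 kb at 281 kb from Myc, and 4.31 kb at 438 kb from Mef2c. Mef2c also held a region of 7.32 kb, and Myc a region of 5.64 kb at its end.

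Within genes, the regions fell along the whole body. Of 208 inside genes, 158 lay in a gene whose strand was read from the promoter table, with 62 in the first part of the gene when it is cut into 3 equal parts, 52 in the middle and 44 in the last. The median position was 47.2% of the way from start to end. The 247 genes overlapped by wide single-interval regions (1.14% of the 21627 protein-coding genes) had a median length of 58.1 kb, against 22.1 kb for genes overlapped by wide joined regions and 17.3 kb for all protein-coding genes. A long gene has more bases to be overlapped, and its part in the gene counts below was not tested.

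In 25 genes more than 1 wide single-interval region was found. Lpp had 6, of 15.4, 13.7, 8.65, 7.32, 7.21 and 4.18 kb, over a gene of 599 kb. Malt1 had 3 within or across 48.0 kb, of 15.8, 10.2 and 5.06 kb. Fnbp1l had 3 of 11.5, 4.71 and 4.70 kb, and the neuronal splicing factor gene Rbfox1, 1528 kb long, had 3 of 7.85, 7.09 and 4.68 kb. Dlgap2, of a synaptic scaffold family, had 3 of 4.20, 3.95 and 3.85 kb. Cadm1 had 2 of 21.7 and 4.54 kb, Nfkb1 had 2 of 13.2 and 4.50 kb, Lpl had 2 of 10.9 and 4.19 kb, and Nrp2 had 2 of 11.0 and 4.90 kb. Regions in the same gene come from the same stretch of chromatin and are not independent.

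Wide single-interval regions stood close to other MED1 regions. Of the 399, 296 had another region within 12500 bp, 74.2% (69.7 to 78.2), against 60.8% (59.7 to 61.9) of narrow single-interval and 75.5% (74.0 to 77.0) of wide joined regions. The median gap to the nearest region was 3.96 kb, against 7.87 and 4.13 kb. Within 0.5 kb of another region were 71 of them (17.8%), against 9.22% and 15.8%. None had a neighbour closer than 0.3 kb, which allows a share of up to 0.954%. That share was 0.331% and 1.24% in the same order, and 0.567% of all regions. Where a neighbour lay within 12500 bp, it was itself a single-interval region in 140 of 296 cases, 47.3% (41.7 to 53.0), against 39.5% and 34.3%, while 35.3% of all regions were single-interval.

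Stitching of regions across gaps of up to 12500 bp gave 13549 clusters, and the wide single-interval regions fell in 361 of them. Of these 361 clusters, 29 held at least 2 of them, and the most held 4. Of the 399 regions, 103 (25.8%) formed a cluster alone. In the 677 clusters of the top 5% by covered length lay 161 of them (40.4%), against 10.4% of narrow single-interval and 40.8% of wide joined regions, a ranking that width itself enters. The most crowded were a region in Pxn, the focal adhesion protein paxillin, and a region near Lag3, an inhibitory receptor of T cells, each with 11 other regions within 50 kb. Next, with 10 each, were regions whose nearest genes were Cpsf6, Clic4 and Eea1. The most isolated lay 254 kb from Sema3a, with the next region 3706 kb away, followed by a region in Dpp10 (334 kb) and a region near Ankrd50 (332 kb).

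Chromosome 16 had the highest share of its single-interval regions in the wide set, 28 of 325 (8.62%, 6.03 to 12.2), and chromosome 14 the lowest, 7 of 278 (2.52%, 1.22 to 5.11). Of the 28, 6 lay in Lpp and 3 in Rbfox1. Chromosome 2 held the most in number, 47, followed by chromosome 11 with 34, and 13 lay on the X chromosome. The shares of the other chromosomes ran between these bounds.

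Lists of genes of the macrophage response to LPS were set against all genes. The lists were written with earlier results of these data known, so their shares are description only. Wide single-interval regions overlapped 247 of all 21627 protein-coding genes (1.14%), and 626 genes (2.89%) were near such a region, here meaning that 50 kb or less separated the middle of the region from the closer gene end. Of 40 genes of the primary LPS response, 8 were overlapped (10.5 to 34.8%) and 10 were near a region (14.2 to 40.2%). With the widest region of each cluster alone, a choice added after the data were examined, 5 of the 40 were overlapped. Of 31 genes of the secondary and interferon response, 7 were overlapped (22.6%, 11.4 to 39.8) and 13 were near a region (41.9%, 26.4 to 59.2). Of 35 macrophage lineage genes, 4 were overlapped (11.4%, 4.54 to 26.0) and 6 were near a region (17.1%, 8.10 to 32.7). The genes of these 3 lists had median lengths of 7.57, 8.36 and 19.6 kb, against 17.3 kb for all protein-coding genes. List genes that neighbour each other can share a region, and no test was made of these shares.

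In the primary response, the overlapped genes were cytokine, chemokine and signalling genes. They were Ccl5 (24.3 kb) and Il1a (3.90 kb), which encodes interleukin-1 alpha and had 3 region midpoints within 50 kb. Il1b, which encodes interleukin-1 beta, lay 34.2 kb from a region of 4.85 kb. Of the NF-kB family and its regulators, Nfkb1 (13.2 kb), Rel (8.62 kb), the gene of the subunit c-Rel, and Nfkbiz (6.30 kb), an inducible co-regulator of NF-kB, were overlapped. Cd83 (9.74 kb), a marker of mature antigen-presenting cells, Dusp5 (5.49 kb), a phosphatase that inactivates ERK, and the kinase gene Src (5.47 kb) made up the 8. Socs3, a feedback inhibitor of cytokine receptors, had a region of 6.06 kb at 6.85 kb.

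The secondary and interferon genes overlapped were Rsad2 (8.89 kb), Gbp5 (7.12 kb), Ifit2 (6.36 kb), Ifit1 (5.34 kb), Edn1 (4.93 kb), Gbp2 (4.13 kb) and Ifnb1 (4.09 kb). The Ifnb1 region, chr4:88519930-88524018, held the gene whole. The promoters of 6 of the 7, all but Ifit2, are those shown above, and 5 of them have the interferon element in capitals. Ifit3 lay 11.3 kb from the Ifit2 region and Gbp3 47.0 kb from the Gbp2 region, so these genes share regions with a neighbour. Il10, the gene of an anti-inflammatory cytokine, lay 29.5 kb from the Mapkapk2 region of 11.7 kb. Il27, Usp18, which encodes a brake on interferon signalling, and Oasl1 had midpoints at 12.6, 19.9 and 24.5 kb.

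The macrophage lineage genes overlapped were Runx1 (6.82 kb), a transcription factor of blood development, Trem2 (5.25 kb), a lipid-sensing receptor, the lysosomal protease gene Ctss (4.33 kb), and Csf1r (4.13 kb), the receptor for macrophage colony-stimulating factor. Lyz2, the lysozyme gene, and Fcgr3, a receptor for antibody-coated particles, had midpoints at 41.8 and 33.0 kb. The label of a macrophage line was checked against all regions, wide or not, and 34 of 35 macrophage lineage genes had a region near them, as did 71.1% of all protein-coding genes. For the other cell types the counts were 17 of 20 T cell, 14 of 18 B cell, 12 of 20 hepatocyte and 10 of 24 neuronal genes. The T cell and B cell shares, 85.0% and 77.8%, were also above that of all genes. So were those of lists not tied to a cell type. A region was near 24 of 24 housekeeping, 26 of 26 histone acetylation and 30 of 30 actin and adhesion genes. It was near 32 of 33 Mediator and 20 of 21 2-ketoacid and acetyl-CoA genes. This measure therefore does not set the macrophage lineage genes apart from those lists.

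The counts of the other lists are read against the 1.14% of all genes overlapped and the 2.89% near a region, shares at which lists of this size would hold at most about 1 such gene. Of the 2-ketoacid dehydrogenase and acetyl-CoA genes, which supply the acetyl donor for histone acetylation, 0 of 21 were overlapped, and Bckdhb and Pdhx had midpoints at 11.2 and 41.9 kb. Of 33 Mediator genes, 0 were overlapped, and Med22 had a midpoint at 21.5 kb. Of 26 histone acetylation genes, the deacetylase gene Hdac5 was overlapped (4.40 kb), and Hdac7 had a midpoint at 5.96 kb. Of 30 actin and adhesion genes, 4 were overlapped (13.3%), namely Pxn, Wasf2, Tns3 and Dock10, and 3 were near a region. The genes of this list had a median length of 69.2 kb, against 17.3 kb for all protein-coding genes. Of 24 housekeeping genes, 0 were overlapped and Rpl13a had a midpoint at 43.8 kb. Of the 20 T cell genes, Cd4 alone was near a region, the one named above for Lag3, with its midpoint at 12.0 kb. The lists of B cell, neuronal and hepatocyte genes had 0 in both measures. The lists with 0 overlapped genes allow shares of up to 10.4% for the Mediator genes and up to 17.6% for the B cell genes (upper Wilson limits), so none of these zeros lies apart from the share of all genes.

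The wide joined regions, of which there were 3306, overlapped 80.0% of the primary LPS genes, 41.9% of the secondary and interferon genes and 60.0% of the macrophage lineage genes, against 11.4% of all genes. The narrow single-interval regions overlapped 17.5% of the primary, 16.1% of the secondary and interferon and 25.7% of the macrophage lineage genes, against 16.4% of all genes. The sets differ in number of regions and in bases covered, so their shares are given side by side without a test.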

How the data were processed

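MED1 ChIP-seq was made from 4 libraries, 2 of cells given LPS for 2 h and 2 of untreated cells. Per the labels' protocols, cells were cross-linked with DSG and formaldehyde, and MED1 was immunoprecipitated from sonicated chromatin. The submitters' processing notes name Bowtie, SAMtools, MACS2 2.2.6 and mm10. How peaks were called, with which controls and on which pool, is not given in the sources used here. A table of 53764 intervals was deposited, holding only positions. Its deposited score column is 0 throughout and was not used, and it has 0 columns of other samples.

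The 17 intervals off chromosomes 1 to 19 and X were left out. Members and gene lists were chosen with earlier results of these data known. Genes and promoters came from RefSeq (GRCm38.p6). The promoter table is not complete, so starts were not used to place regions, and promoter counts cover its entries alone, with chromosome 18 (14 members) not analysed for promoters. Of 34 listed interferon genes, 31 were found as protein-coding. The named genes were those nearest the 20 widest members, those whole inside a member, up to 4 per list by width and then distance, those of the most crowded (3 and ties) and the 3 most isolated members, and those at the width limit; others were named after their values were seen. Shares carry Wilson 95% intervals and medians binomial order-statistic intervals. No test was made because intervals carry no library. The functions were tested on simulated data. Software was matplotlib 3.10.9, pandas 2.3.3, scipy 1.17.1, numpy 2.4.6 and Python 3.11.15.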

Additional observations from a re-analysis of the deposited data

How the results depend on the processing

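Over 9 results, 66 alternatives were computed; 43 stayed within the 95% interval of the reported value and 23 lay outside it. The comparison sets were not recomputed, so their order under the alternatives was not checked. Without joining, the gene-end share and the median distance below fall on the other side of the 17.6% and 10.9 kb of narrow single-interval regions. By any overlap the gene-end share also lies above that 17.6%, which was counted by midpoint. The share at a gene end (10.0%) was 6.59% for the 167 regions of at least 5000 bp, 16.5% with a 2.5 kb window, 21.1% by any overlap, 14.3% with all annotated genes and 19.3% without joining. The share inside genes (52.1%) was 45.4% by any overlap, and the share outside (37.8%) was 29.3% with all annotated genes and 29.9% without joining. The median distance (17.5 kb) was 7.11 kb without joining. The share with a neighbour within 12500 bp (74.2%) was 53.4% within 5 kb and 68.6% with regions joined across 500 bp. The share of all genes overlapped (1.14%) was 0.472% at 5000 bp, 2.12% at 3000 bp, 0.957% joined across 500 bp and 7.14% without joining, and a midpoint within 10, 50 and 100 kb gave 0.842%, 2.89% and 4.94%. Without joining, primary genes (8 of 40) had 80.0%, secondary and interferon genes (22.6%) 45.2%, and macrophage genes (11.4%) 57.1%. Secondary and interferon genes had 41.9% with a midpoint within 50 kb and 41.9% within 100 kb.

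Without joining, 2305 intervals of at least 3776 bp entered, many of them pieces of joined regions, so that alternative describes another set. Taking 1 member per stitched cluster (361 regions) was added after the data were examined and moved no result outside its interval. No paired analysis was possible because the deposited intervals carry no library, and leaving out replicates was not run for that reason. Depth is unknown, widths depend on the unstated peak-calling settings, and the set could not be split by condition.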

Other observations

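Genes of lipid mediators and histamine, a group chosen after its values were seen, also lay under wide single-interval regions. Ptges, which makes prostaglandin E2, held a region of 9.41 kb at chr2:30912111-30921519, the 26th widest of the 399. Ltc4s, the leukotriene C4 synthase, lay whole inside a region of 4.02 kb at chr11:50235878-50239896, and Pla2g4a, the phospholipase that releases arachidonic acid, held a region of 4.88 kb. Hdc, which makes histamine, held 2 regions of 6.62 and 4.35 kb that were 1.03 kb apart. Regions also lay at interleukin-1 family genes beyond Il1a, with 5.60 kb over an end of the receptor antagonist gene Il1rn and 3.90 kb inside Il1rl1, the gene of the interleukin-33 receptor. Traf1, an adaptor of TNF receptors, held 9.12 kb, and the cytokine gene Il15 held 7.81 kb. These are values without a test, and other genes of these pathways were not counted.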
